A study of Mus musculus with 123 samples.

Results

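Livers of the inbred strain CC019/TauUnc were set against livers of the other 21 Collaborative Cross (CC) strains in a microarray study of female mice. The strain label chose the 5 CC019/TauUnc mice out of 123 mice in all. A CC059/TauUnc mouse fed HS was left out, as the rule for the comparison sets, so 122 mice were used. CC019/TauUnc held 2 mice on the high-protein (HP) diet and 3 on the high-fat high-sucrose (HS) diet, and the comparison group, all mice of the other 21 strains, 61 mice on HP and 56 on HS. All mice were females that arrived at 6 to 9 weeks of age, spent 2 weeks on a synthetic chow, ate their experimental diet for 8 weeks and were fasted for 4 h before the liver was taken. Each value is the log2 expression of 1 liver on 1 array, made by robust multi-array average (RMA), so a difference of 1 is a doubling. The mice of CC019/TauUnc are of a single inbred line and share 1 genotype, so what belongs to the line cannot be told apart from what its 5 mice shared in cage, week or array plate, which the labels do not give.

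The CC is a panel of recombinant inbred strains bred from several founder strains, among them wild-derived ones, so each strain fixes its own mosaic of founder alleles and any gene can be set high or low in a line by nearby sequence. Liver is mostly hepatocytes, which make plasma proteins, bile acids, cholesterol and urea, while its resident macrophages, the Kupffer cells, together with endothelial and dendritic cells carry most of the class II molecules that show peptides to T cells. In bulk tissue, fewer cells of a type and less RNA per cell cannot be told apart.

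The CC019/TauUnc livers looked like liver and like one strain. Their 10 hepatocyte markers, among them *Alb* for albumin, averaged 12.06 to 12.14 by mouse, inside the range of 11.36 to 12.25 in the other mice, and differed by a median of 0.00 with 0 members past the test. Across genes, with each gene's mean removed, the 5 mice correlated at 0.557 to 0.687 with the rest of their own strain and at no more than 0.135 with the best other strain. In the other mice the correlation with the own strain ran from 0.288 over a median of 0.657 to 0.814. Array medians were 2.99 to 3.05 in CC019/TauUnc, against 2.97 to 3.16 over all mice.

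One of the 5 mice stood apart. In CC019/TauUnc HP replicate 1, 35 of 22180 genes exceeded every other mouse by more than 1, a count that was 0 in the other 4 CC019/TauUnc mice and had a range of 0 to 25 and a median of 0 in the other strains. All 20 genes of a list of pancreatic acinar products, chosen after these values were seen, were at their highest of 122 mice in that liver. *Ctrb1*, a chymotrypsinogen, was 12.06 in it and *Cela1*, an elastase, 11.01, while the 20 genes stayed between 0.81 and 4.71 in the other 4 CC019/TauUnc livers. The mean of the list was 9.36 in HP replicate 1 and 2.21 to 2.29 in the other 4, against 2.04, 2.31 and 6.40 (lowest, median and highest) in the other strains, where 2 mice had a mean over 5. Only 2 of the 20 genes passed the filter on expression and were tested, *Cela1* and *Try4*.

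**Figure D1:**
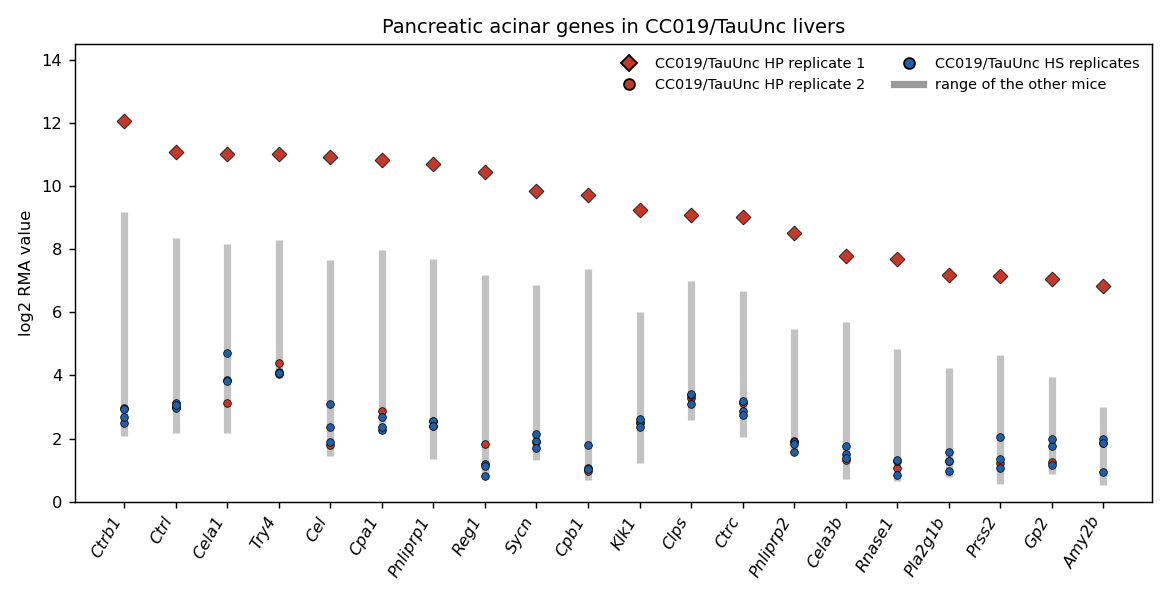
Values of 20 pancreatic acinar genes (log2 RMA value, vertical axis) in the 5 CC019/TauUnc livers, with the range of all mice of the other strains as a grey bar. HP replicate 1 (diamonds, 6.82 to 12.06) lies above every bar, and the other 4 livers lie between 0.81 and 4.71.

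The first comparison asks which genes the liver of CC019/TauUnc expressed at another level than livers of other strains, with diet as covariate. Of 10937 genes tested, 334 passed limma's test at an adjusted p under 0.05 (3.05%), 182 of them higher (1.66%) and 152 lower (1.39%) in CC019/TauUnc. A gene past this threshold is called in what follows. The median size of the called differences was 0.57, and over all genes tested the median difference was 0.02. Differences of more than 1 were found for 25 called genes that were higher and 35 that were lower, and of more than 2 for 4 and 8. At an unadjusted p under 0.05 there were 1831 genes, 1026 higher and 805 lower. Taking the strain as a random block left 38 called genes, 15 higher and 23 lower, all of them among the 334. This block fit gives all genes 1 consensus correlation (0.31). The p of a gene whose spread lies more between lines than that comes out too small. Without HP replicate 1 the count was 231, and without HS replicate 3 it was 134, the lowest on leaving out any 1 CC019/TauUnc mouse. Of 79 called genes with values recorded by name, 31 were called on leaving out each of the 5 mice in turn, and 21 with the strain block.

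The largest gain was in *Col5a2*, a fibrillar collagen chain. It was 8.36 and 7.54 in the HP mice and 7.98, 7.53 and 7.85 in the HS mice of CC019/TauUnc, against 2.52, 3.68 and 7.88 (lowest, median and highest) in the other mice. Only 2 other mice reached the lowest CC019/TauUnc value, and the difference was 3.97 ± 0.42 (SE), or 15.6-fold (adjusted p = 1.6e-12). The fold is likely understated, since the median of the other mice lies under the 4.08 used to filter low genes, where array values flatten out. Among the 22 strain means (HP and HS weighted equally) CC019/TauUnc was highest at 7.87 and CC024/GeniUnc next at 7.30. *Col5a2* was the only called gene of 25 collagen and matrix genes, whose median difference was 0.01, so the other fibrillar collagens did not pass the test with it. Its call held with the strain block (adjusted p = 7.2e-08) and without HP replicate 1 (1.4e-09).

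Further genes were high in all 5 CC019/TauUnc livers. *Rassf4*, which encodes a Ras-association domain protein, was 7.74 and 7.44 on HP and 7.18, 7.84 and 7.35 on HS in CC019/TauUnc, against 3.26, 5.35 and 7.0 in the other mice, so the groups did not overlap. The difference was 2.13 ± 0.30 (adjusted p = 2.4e-07). *Pm20d1*, a secreted enzyme that forms N-acyl amino acids from fatty acids and amino acids, was 10.60 and 10.73 on HP and 10.67, 10.45 and 10.69 on HS, against 8.30, 9.54 and 10.05. Here too no other mouse reached the CC019/TauUnc values, and the difference was 1.22 ± 0.19 (adjusted p = 5.6e-06). *Lrba*, named after its values were seen, was the third gene whose 5 CC019/TauUnc values (7.51 to 7.65) all lay above those of all other mice (6.70 to 7.48). The count of 3 such genes compares with a median of 2 and a range of 0 to 9 over the other 21 strains.

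*Lnx1*, an E3 ubiquitin ligase, was 6.13 and 5.97 on HP and 5.67, 5.49 and 5.79 on HS in CC019/TauUnc, against 2.09, 3.43 and 6.10 in the other mice, of which 6 reached the lowest CC019/TauUnc value. It was 2.16 ± 0.39 higher (adjusted p = 8.7e-05). *Cnot11*, a subunit of the CCR4-NOT complex that shortens poly(A) tails, was 7.47 and 7.55 on HP and 7.59, 7.73 and 7.40 on HS, against 4.85, 5.76 and 7.46, with 1 other mouse at or above 7.40. It was 1.53 ± 0.30 higher (adjusted p = 3.9e-04). *Mapkapk3*, a kinase downstream of p38, was higher by 1.33 ± 0.27 and *Dusp23*, a phosphatase, by 1.02 ± 0.16. All 7 named here and above (*Col5a2*, *Rassf4*, *Pm20d1*, *Lnx1*, *Cnot11*, *Mapkapk3* and *Dusp23*) were called with the strain block too (adjusted p up to 0.033) and on leaving out each CC019/TauUnc mouse.

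Other gains were called in the pooled fit but not with the strain block. *Bhlhe41*, a repressor of the circadian clock, was 1.5 ± 0.34 higher (adjusted p = 0.0033, and 0.38 with the strain block). *Npr2*, a natriuretic peptide receptor, was 1.23 ± 0.34 higher, *Cyp2d22*, a cytochrome P450, 1.15 ± 0.29, *Psma8*, a proteasome subunit known from testis, 1.14 ± 0.31, and the zinc finger gene *Zfp963* 1.06 ± 0.21. With the strain block their adjusted p ran from 0.059 for *Zfp963* to 0.46 for *Psma8*. *Npr2* (0.067) and *Psma8* (0.071) were not called without HP replicate 1. On leaving out each CC019/TauUnc mouse in turn, *Npr2* was lost in 5 and *Psma8* in 3 of 5 fits. The smallest of the 15 largest gains at the top of the 22 strains was that of *Gpcpd1*, a glycerophosphocholine phosphodiesterase, at 0.86 ± 0.26 (adjusted p = 0.043), and it was lost on leaving out any of 4 of the 5 CC019/TauUnc mice.

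**Figure D2:**
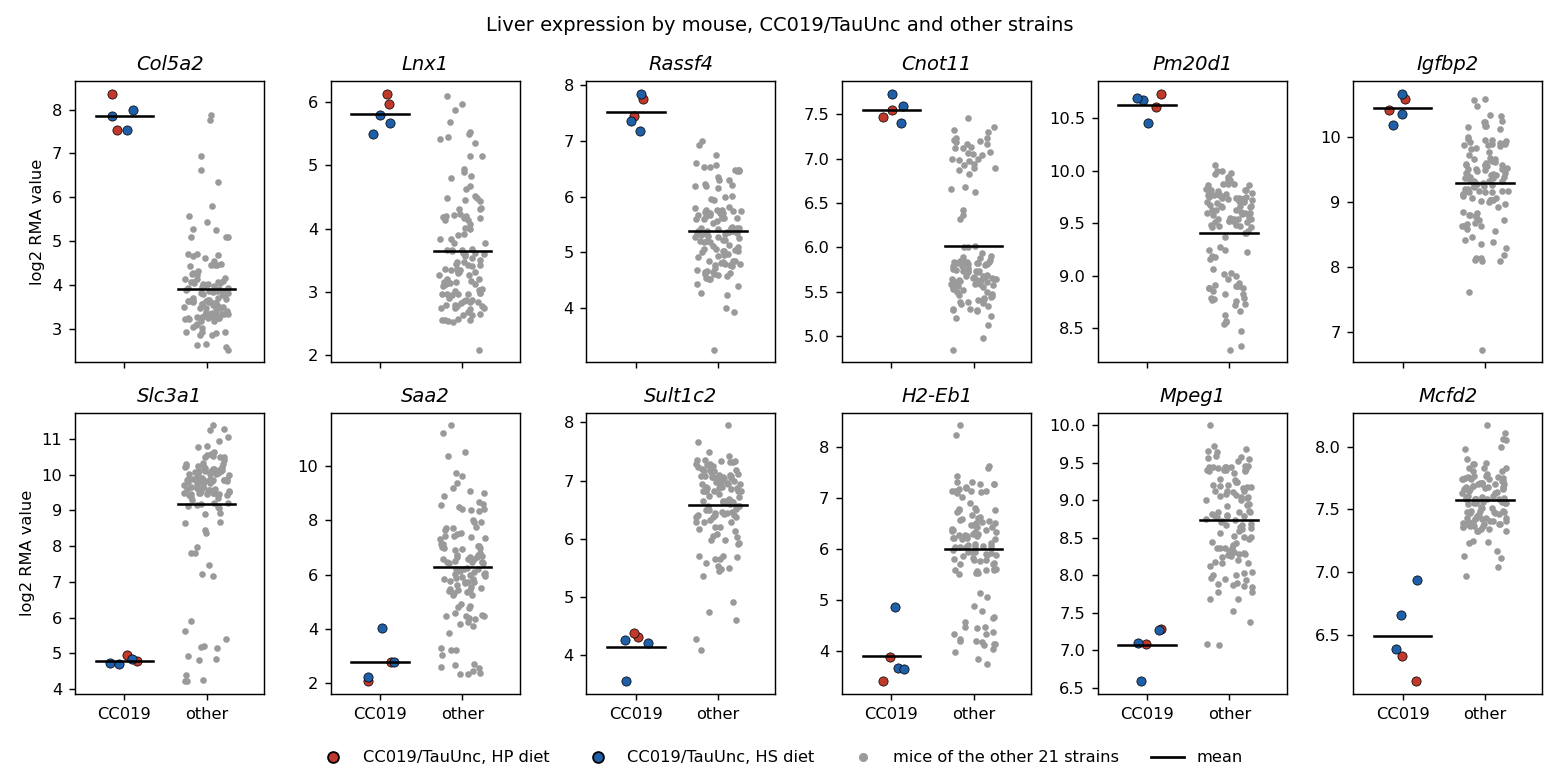
Expression of 6 genes that were higher (upper row) and 6 that were lower (lower row) in CC019/TauUnc, 1 point per mouse (log2 RMA value, vertical axis), with CC019/TauUnc left of the other strains and a bar at the mean. *Rassf4*, *Pm20d1* and *Mcfd2* do not overlap between the groups, whereas the other 9 genes do.

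The largest loss was in *Slc3a1*, the heavy subunit of the transporter for cystine and dibasic amino acids. It was 4.77 and 4.94 on HP and 4.73, 4.69 and 4.85 on HS in CC019/TauUnc, against 4.22, 9.72 and 11.38 in the other mice, 7 of which were at or below the highest CC019/TauUnc value. The signal was thus low in every CC019/TauUnc liver and high in most others. The difference was −4.36 ± 0.75, or 20.5-fold (adjusted p = 2.6e-05, and 7.7e-04 with the strain block). The CC019/TauUnc values lay not far above the 4.08 used to filter low genes. Whether probes miss an allele, here or in the losses that follow, was not tested. CC024/GeniUnc had the next lowest strain mean at 4.97, close to the 4.81 of CC019/TauUnc. *Slc3a2*, the heavy subunit that pairs with another set of amino acid transporters, was 0.38 ± 0.08 higher in CC019/TauUnc (adjusted p = 0.0016, and 0.30 with the strain block).

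*Sult1c2*, a sulfotransferase, was 4.32 and 4.38 on HP and 4.22, 3.56 and 4.26 on HS in CC019/TauUnc, against 4.10, 6.68 and 7.95 in the other mice. Of these mice 2 were at or below 4.38, and the difference was −2.41 ± 0.30 (adjusted p = 4.3e-09). *Mcfd2*, a cargo receptor partner that helps clotting factors leave the endoplasmic reticulum, was the gene with the smallest p of the comparison and was named after its values were seen. It was 6.13 and 6.33 on HP and 6.66, 6.94 and 6.39 on HS, against 6.97, 7.58 and 8.17, with no overlap and a difference of −1.10 ± 0.10 (adjusted p = 1.9e-17). It was the 1 gene with all 5 CC019/TauUnc mice below all others, a count whose median over the other strains was 4 (0 to 8). Both genes were called with the strain block (adjusted p = 7.5e-05 for *Sult1c2* and 7.2e-08 for *Mcfd2*).

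*Pla2g7*, the plasma platelet-activating factor acetylhydrolase, differed by −1.83 ± 0.33 (adjusted p = 9.2e-05), and 2 of the other mice came down to its CC019/TauUnc values. *Nxpe2*, of the neurexophilin family, differed by −3.05 ± 0.73 (adjusted p = 0.0059), with 30 of the other mice at or below the highest CC019/TauUnc value of 3.46. *Ces2e* and *Ces1b*, carboxylesterases that split esters of drugs and lipids, differed by −1.27 ± 0.20 and −1.93 ± 0.46. *Cep83os*, a noncoding RNA of the *Cep83* locus, differed by −1.91 ± 0.38 and *Ly6e*, an interferon-inducible surface protein, by −1.37 ± 0.25. These 6 were called with the strain block (adjusted p 0.0094 to 0.022), whereas *Rgs4*, a brake on G protein signalling (−1.19 ± 0.27, adjusted p = 0.0035), was not (0.27). Values of *Nxpe2*, *Cep83os* and *Pla2g7* in CC019/TauUnc averaged 2.09, 2.81 and 3.31, also under 4.08.

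Genes of antigen presentation were the group with most called members. Of 18 tested MHC class I and II genes 5 were called lower (1.39% over all genes) and 0 higher, with a list median of −0.31. On leaving out 1 CC019/TauUnc mouse 1 to 3 were called, the 1 without HS replicate 1. *H2-Eb1*, the beta chain of the class II molecule I-E, was 3.88 and 3.40 on HP and 3.66, 4.86 and 3.64 on HS in CC019/TauUnc, against 3.74, 6.11 and 8.42 in the other mice, 21 of which were at or below 4.86. The difference was −2.13 ± 0.45 (adjusted p = 0.0011). *H2-Ab1*, the beta chain of I-A, was 6.88 and 6.84 on HP and 6.65, 6.70 and 7.80 on HS, against 6.69, 8.26 and 10.11, with 31 of the other mice at or below 7.80, a difference of −1.32 ± 0.33 (adjusted p = 0.0078). Its partner *H2-Aa*, named after its values were seen, differed by −1.02 ± 0.29 (adjusted p = 0.027). Each of these CC019/TauUnc strain means was the lowest of 22, with CC071/TauUnc next.

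Not every MHC gene followed. *H2-Ea*, the alpha chain that pairs with *H2-Eb1* and is not expressed in several inbred strains that carry a deletion, was 5.40 and 5.08 on HP and 4.08, 5.07 and 6.59 on HS in CC019/TauUnc, against 0.95, 1.72 and 10.32 in the other mice, 24 of which reached 4.08. The CC019/TauUnc mean had place 5 of 22 from the top, and the difference of 2.55 ± 0.98 was not past the test (adjusted p = 0.14). The class I genes *H2-T10* (−1.56 ± 0.42, adjusted p = 0.017) and *H2-M3* (−0.52 ± 0.16, adjusted p = 0.040) were lower, whereas the classical class I gene *H2-K1* had a difference of −0.57 ± 0.32 (adjusted p = 0.36) and *B2m*, the light chain of all class I molecules, of 0.01 ± 0.07 (adjusted p = 0.94). *H2-M3*, *H2-K1*, *H2-Ea* and *B2m* were named after their values were seen. With the strain block *H2-Eb1* was the only called member of the 5 (adjusted p = 0.040, against 0.35 to 0.64 for the others). *H2-T10* (0.12) and *H2-M3* (0.19) were not called without HP replicate 1, and of the 5 genes *H2-Eb1* alone was called on leaving out each mouse, with *H2-Aa* lost in 4 and *H2-Ab1* in 2 of 5 such fits. MHC genes differ much in sequence between founders and between family members, and probes of one may bind another or miss an allele, which was not tested.

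The class II genes are shown with the stretch of promoter that holds their Y box, the reversed CCAAT element bound by the factor NF-Y in class II promoters, because it is the named element that *H2-Eb1* and *H2-Aa* share. The sequences are those of the reference strain in RefSeq (GRCm38.p6), 5′ to 3′ on the strand of the gene, with the letters CTGATTGG in capitals, and not those of CC019/TauUnc.
H2-Eb1, chr17:34305794-34305823, plus strand: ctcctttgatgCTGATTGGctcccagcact
H2-Aa, chr17:34287856-34287885, minus strand: aagagaattttCTGATTGGttctggcgagt
Of 5 genes looked for (the called MHC genes), 3 had an entry in the table of promoters, *H2-Eb1*, *H2-Aa* and *H2-M3*. On the strand of the gene the 8 letters occurred in *H2-Eb1* and *H2-Aa* and not in *H2-M3*. Counted on either strand, a wider search, they occurred in 1346 of 32851 windows (4.1%) of 250 bases before to 50 after a gene start. A match is a description of these letters and not evidence of a bound site.

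Of 16 Kupffer cell and macrophage markers 3 were called lower (1.39% over all genes) and 0 higher, 15 were below 0 and the median was −0.46. Markers of a cell type may move together from mouse to mouse, so the count below 0 does not stand for 15 separate genes. *Mpeg1*, the macrophage pore protein perforin-2, was 7.09 and 7.28 on HP and 6.59, 7.10 and 7.27 on HS in CC019/TauUnc, against 7.07, 8.79 and 10 in the other mice, 2 of which were at or below 7.28. The difference of −1.65 ± 0.27 (adjusted p = 1.4e-05) held with the strain block (0.0095). *Adgre1*, which encodes the F4/80 antigen, and *C1qc*, a chain of complement C1q, were lower by smaller amounts (−0.76 ± 0.23 and −0.72 ± 0.20, adjusted p = 0.049 and 0.025). Neither call held with the strain block (0.69 and 0.57) or without HP replicate 1 (0.10 and 0.19). On leaving out 1 mouse they were lost in 5 and 3 of 5 fits. The Kupffer cell receptor *Clec4f* averaged 8.28 ± 0.32 (SD, n = 5) in CC019/TauUnc and 8.70 ± 0.48 (SD, n = 61 on HP and 56 on HS) in the others, with an adjusted p of 0.24. The mean of all 16 markers was 6.35 and 6.85 on HP and 6.70, 6.79 and 7.34 on HS in CC019/TauUnc, against 5.78, 7.22 and 8.35, so 4 of the 5 livers lay under the median of the others and none under their lowest. All 16 markers passed the filter on expression.

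Of 34 interferon response genes 3 were called lower (1.39% over all genes) and 0 higher, and 1 was without HP replicate 1, HP replicate 2, HS replicate 1 or HS replicate 3. Only 1 lay above 0, and the median was −0.53, the lowest of the lists with more than 3 tested members. Here too members may move together from mouse to mouse, so signs do not count as separate genes. *Stat2*, a transcription factor of the type I interferon signal, differed by −0.56 ± 0.12 (adjusted p = 0.0016), *Irgm2*, an immunity-related GTPase, by −1.04 ± 0.30 (adjusted p = 0.033) and *Isg15*, a ubiquitin-like modifier, by −0.89 ± 0.27 (adjusted p = 0.047). None of the 3 was called with the strain block (0.30 to 0.57), and without HP replicate 1 neither *Irgm2* (0.16) nor *Isg15* (0.13) was. On leaving out 1 mouse these 2 calls were lost in 4 and 5 of 5 fits. *Ifi202b*, an interferon-activated DNA-binding protein of which some strains have extra copies, differed by −2.06 ± 0.45 (adjusted p = 0.0023, and 0.023 with the strain block), at a CC019/TauUnc mean of only 1.96. *Clec7a*, the beta-glucan receptor of myeloid cells, differed by −1.32 ± 0.38 (adjusted p = 0.031), a call lost on leaving out any 1 CC019/TauUnc mouse. Means of the interferon list were 5.52 and 5.80 on HP and 5.80, 5.93 and 6.24 on HS, against 5.43, 6.39 and 7.77, all 5 below the median of the other mice. The 6 T and NK cell markers tested had a median of −0.28 and the 5 B and plasma cell markers of −0.39, with 0 called in each. The part that the number of immune cells had in the MHC and interferon values was not tested.

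**Figure D3:**
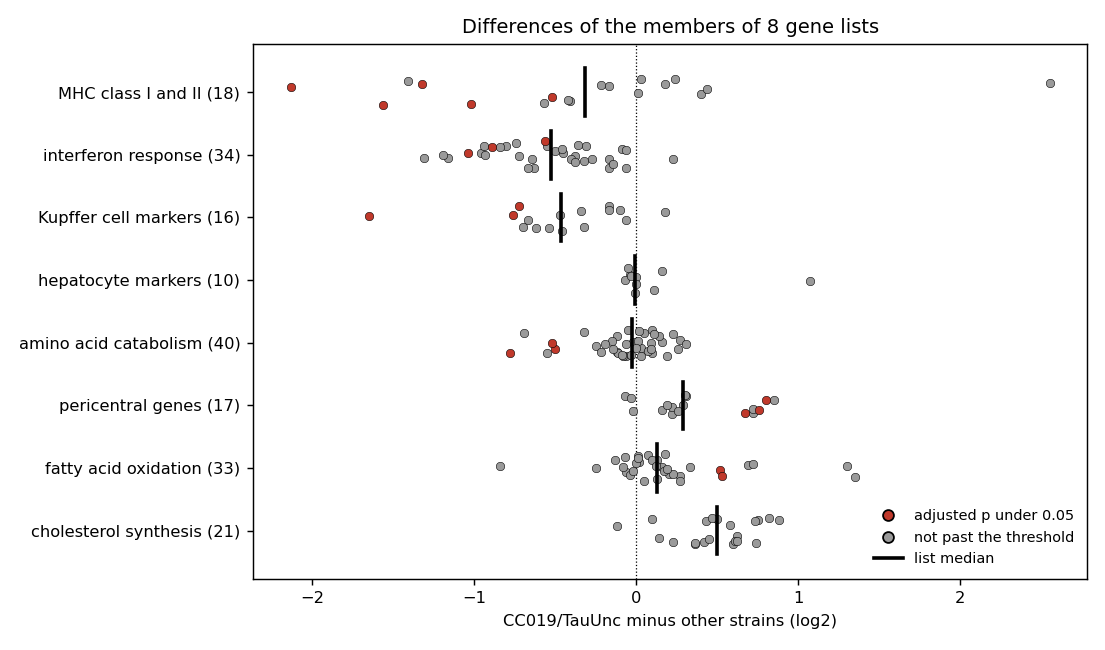
Differences, CC019/TauUnc minus other strains (log2, horizontal axis), of the members of 8 gene lists, 1 point per tested gene, with called genes in red and a bar at each list's median. The interferon (−0.53), Kupffer (−0.46) and MHC (−0.31) medians lie left of 0 and the cholesterol median (0.50) right of it, with 0 called genes among the 21 of the last.

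The genes of cholesterol synthesis and uptake leaned the other way without passing the test. Of 21 tested members 20 were above 0, the median was 0.50 against 0.02 over all genes, and 0 were called. *Cyp51*, lanosterol demethylase, was 0.82 ± 0.35 (adjusted p = 0.20) and *Sqle*, squalene epoxidase, 0.73 ± 0.48 (adjusted p = 0.45), both named after their values were seen. The list's mean was 8.61 and 8.89 on HP and 8.85, 9.02 and 8.53 on HS in CC019/TauUnc, against 6.96, 8.28 and 9.42, so all 5 livers were above the median of the other mice and within their range. Since the members move together from mouse to mouse, the count above 0 does not stand for 20 separate genes. After adding the clock gene score to the model, the median was 0.73 and 4 members were called higher.

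Sterol and bile acid handling held a few called genes. *Cyp27a1*, the sterol 27-hydroxylase of the acidic bile acid pathway, was 10.46 and 10.52 on HP and 10.47, 10.50 and 10.42 on HS in CC019/TauUnc, against 8.56, 9.88 and 10.61 in the other mice, 3 of which reached 10.42. The 5 values were within 0.10 of each other, and the difference was 0.67 ± 0.16 (adjusted p = 0.0072, and 0.13 with the strain block). *Abcc2*, the canalicular export pump, was 0.40 ± 0.10 higher (adjusted p = 0.013), a call lost in 4 of 5 fits on leaving out 1 mouse, among them that without HP replicate 1 (0.059). *Abcg8*, a subunit of the sterol exporter, was 0.73 ± 0.18 higher (adjusted p = 0.0059), a call lost in 1 such fit. With the strain block neither *Abcc2* (0.40) nor *Abcg8* (0.33) was called. *Abcg5*, the partner of *Abcg8*, had a difference of 0.14 ± 0.21 (adjusted p = 0.80), and *Cyp7a1*, the rate-limiting enzyme of the classical pathway, of 0.85 ± 0.44 (adjusted p = 0.32), both named after their values were seen. Of 23 bile acid genes 2 were called higher (1.66% over all genes) and 0 lower, with a median of 0.05.

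Insulin and fuel genes gave a small set of calls, none of which held with the strain block. *Igfbp2*, a carrier of insulin-like growth factors, was 10.59 and 10.42 on HP and 10.67, 10.19 and 10.36 on HS in CC019/TauUnc, against 6.73, 9.33 and 10.59, with 8 of the other mice at or above 10.19. Its difference was 1.18 ± 0.28 (adjusted p = 0.0056, and 0.31 with the strain block), and that of *Irs2*, the insulin receptor substrate of liver, 0.84 ± 0.21 (adjusted p = 0.0078, and 0.56 with the block). They were the 2 called higher of 22 insulin and IGF genes (1.66% over all genes), while 0 were lower. *Gys2*, liver glycogen synthase, was higher (0.73 ± 0.19) and *Ppp1r3c*, a subunit that brings phosphatase to glycogen, lower (−1.17 ± 0.26), the only calls among 19 genes of gluconeogenesis and glycogen. Of 33 genes of fatty acid oxidation 2 were higher (1.66% over all genes) and 0 lower, with a list median of 0.13. They were *Cpt1a*, the gate of fatty acid entry into mitochondria (0.53 ± 0.13), and *Acaa1a*, a peroxisomal thiolase (0.52 ± 0.16). *Acaa1a* was not called without HP replicate 1 (0.11). On leaving out 1 mouse its call was lost in 5 of 5 fits, that of *Gys2* in 3, those of *Cpt1a* and *Irs2* in 2 and that of *Ppp1r3c* in 1. The call of *Igfbp2* was lost in 0.

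Genes of the hepatocytes around the central vein were called in 1 direction only. Of 17 tested, 3 were higher (1.66% over all genes) and 0 lower, with a median of 0.29. They were *Slc1a2*, a glutamate transporter (0.80 ± 0.19, adjusted p = 0.0044), *Lgr5*, a receptor that amplifies Wnt signals (0.76 ± 0.19, adjusted p = 0.0068), and *Cyp27a1*, which the list shares with the bile acid genes. A further cluster of *Lgr5* on the array, near background at 2.99 in CC019/TauUnc and 2.93 in the others, did not show it. Of the 14 periportal genes 0 were called and the median was −0.08. None of the 3 pericentral calls held with the strain block (adjusted p 0.13 to 0.40).

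The 40 genes of amino acid catabolism had 3 losses, 0 gains and a median of −0.03, beside 1.39% of all genes called lower. *Haao*, which opens the ring of 3-hydroxyanthranilate on the way to NAD, was 9.84 and 9.55 on HP and 9.74, 9.58 and 9.56 on HS in CC019/TauUnc, against 9.59, 10.51 and 11.02 in the other mice. Of these mice 5 were at or below 9.84, and the difference of −0.78 ± 0.12 was called with and without the strain block (adjusted p = 5.1e-06 and 0.0011 with it). *Tdo2*, the first enzyme of tryptophan breakdown, differed by −0.52 ± 0.13 (adjusted p = 0.0059), *Agxt*, which turns glyoxylate to glycine, by −0.50 ± 0.14 (adjusted p = 0.027), and *Qprt*, a later step of NAD synthesis, by −0.38 ± 0.11 (adjusted p = 0.034), none of them called with the block (0.37 to 0.73). *Qprt*, of the nicotinamide list, was not called without HP replicate 1 either (0.090). On leaving out 1 mouse the calls of *Tdo2*, *Agxt* and *Qprt* were lost in 2, 4 and 5 of 5 fits.

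Drug-metabolizing genes were called in both directions. Among 27 P450 genes outside the *Cyp2b*, *Cyp2c* and *Cyp3a* families 3 were higher and 1 lower (1.66% and 1.39% over all genes). *Cyp2u1*, a fatty acid hydroxylase, was 7.73 and 7.57 on HP and 7.81, 7.99 and 6.88 on HS in CC019/TauUnc, against 2.30, 5.60 and 8.61 in the other mice, 20 of which reached 6.88. Its difference of 1.95 ± 0.55 (adjusted p = 0.024) was lost on leaving out any 1 CC019/TauUnc mouse. *Cyp2d40* was lower (−0.98 ± 0.20, adjusted p = 7.5e-04) where *Cyp2d22* of the same family was higher, and neither was called with the strain block (0.096 and 0.15). Genes of one P450 family are alike in sequence, so array probes may take signal from a relative. Of 17 carboxylesterase and flavin monooxygenase genes 3 were lower and 1 higher (1.39% and 1.66% over all genes), the third loss being *Fmo4* (−0.67 ± 0.16). The glutathione transferases *Gstt2* and *Gsto1* (0.82 ± 0.22 and 0.52 ± 0.13) and the Nrf2 target *Nqo1* (0.86 ± 0.25) were higher. None was called with the strain block (0.56, 0.31 and 0.51), and on leaving out 1 mouse the calls were lost in 3, 4 and 5 of 5 fits. The *Cyp2b*, *Cyp2c* and *Cyp3a* lists had medians of 1.33, 0.30 and 0.57 with 0 called among 3, 12 and 7 genes.

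Secreted plasma proteins had few calls, in either direction. *Saa2*, an acute phase apolipoprotein, was 2.07 and 2.76 on HP and 2.76, 4.03 and 2.24 on HS in CC019/TauUnc, against 2.34, 6.41 and 11.50, so it was near background in all 5 livers and spread widely in the others. Its difference of −3.53 ± 0.87 was called (adjusted p = 0.0068) but not with the strain block (0.38). Of 22 acute phase genes 2 were called lower and 1 higher (1.39% and 1.66% over all genes), with a median of −0.08. The other loss was *Fgb*, a fibrinogen chain (adjusted p = 0.044, and 0.69 with the strain block), lost on leaving out any of 4 of the 5 CC019/TauUnc mice. *Crp* was higher by 0.45 ± 0.12 (adjusted p = 0.013, and 0.45 with the block). *Saa3* at 0.12 ± 0.46 and *Orm2* at −0.26 ± 0.54 were not called (adjusted p = 0.93 and 0.85, named after their values were seen). *Serpina1d*, an alpha-1-antitrypsin gene also named after its values were seen, was 4.02 and 4.22 on HP and 4.66, 3.98 and 2.67 on HS in CC019/TauUnc and averaged 8.17 ± 4.38 (SD, n = 61 on HP and 56 on HS) in the others. Its strain mean had place 16 of 22 from the top, and the difference of −4.25 ± 1.95 was not called (adjusted p = 0.24). *Mir122*, the abundant liver microRNA whose precursor a probe set of the array reads, differed by −2.24 ± 0.46 (adjusted p = 5.9e-04, and 0.24 with the strain block). It was named after its values were seen and was 3.48 to 4.76 in CC019/TauUnc, against 3.02, 6.41 and 9.06.

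Mitochondrial genes were nearly flat. Of 40 nuclear genes of the respiratory chain 2 were lower, *Uqcrb* of complex III and *Ndufs4* of complex I, each by 0.30 on the log2 scale (differences of −0.30 ± 0.08), beside 1.39% over all genes, and 0 were higher. Of 10 genes of the mitochondrial genome 1 was lower, *ND3*, a subunit of complex I (−0.90 ± 0.25, adjusted p = 0.024), while their median was 0.14. None of the 3 was called with the strain block (0.55 for *Uqcrb*, 0.72 for *Ndufs4* and 0.13 for *ND3*), and on leaving out 1 mouse their calls were lost in 3, 5 and 4 of 5 fits. *Arntl*, the activator of the clock, had a difference of −1.41 ± 0.48 (adjusted p = 0.081) and *Dbp*, its output in antiphase, of 1.28 ± 0.54 (adjusted p = 0.19), both named after their values were seen. A score of 9 clock genes was 1.94 and 2.91 on HP and 1.52, 0.36 and 2.27 on HS in CC019/TauUnc, against −5.15, 0.04 and 3.32 (SD units), so all 5 livers were above the median of the other mice and within their range. With this score as covariate 256 genes were called, 221 of them among the 334.

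In the gene order of RefSeq (GRCm38.p6, used for order only) 38 of the 334 called genes (11.4%) were neighbours of a called gene, against 613 uncalled genes (5.81%), a difference in shares that was not tested. Allowing up to 4 uncalled genes between, 4 runs of at least 4 called genes held 18 genes. The longest, of 6, was *Eml4*, *Cox7a2l*, *Haao*, a gene model, *Abcg8* and *Slc3a1*, 5 of them lower and *Abcg8* higher. *Mcfd2* lay in a run with *Cript*, *Msh6* and *Ston1*, 2 higher and 2 lower, and *Dusp23* in one with *Kcnj10*, *Crp* and *Ackr1*. The fourth run held the nucleotide receptor genes *P2ry14*, *P2ry13* and *P2ry12* with *Mbnl1*, all lower (−0.64, −0.80, −0.85 and −0.32). The runs were named after their values were seen.

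CC019/TauUnc was not an extreme strain by the count of its genes at an end. Its mean was the highest of 22 for 531 genes (4.86%), place 7 from the top among the strains and inside a range of 218 to 1027 (median 481) for the other 21. It was the lowest for 397 genes (3.63%), against 209 to 1147 (median 468) for the others. Without HP replicate 1 the first count was 822. Of the called genes, 140 of the 182 higher ones had the highest and 115 of the 152 lower ones the lowest mean of 22. Gene models and small RNAs made up 25 of the called genes. Of 67 small nucleolar RNAs 6 were called higher (1.66% over all genes) and 0 lower, with a median of 0.23 over the 67.

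The second comparison asks how the diet altered the liver of CC019/TauUnc. With 2 HP against 3 HS mice and the spread pooled over all strain and diet groups, 7 of 10937 genes were called (0.0640%), 1 higher (0.00914%) and 6 lower (0.0549%) on HP. At an unadjusted p under 0.05 there were 346 genes, 141 higher and 205 lower. In the other 21 strains the mean of the strains' HP minus HS differences was called for 1202 genes that were higher (11.0%) and 1183 that were lower (10.8%). The counts are not to be set side by side, since the median SE of a difference was 0.22 in CC019/TauUnc and 0.04 in the other strains. Without HP replicate 1, which leaves 1 mouse on HP that is assumed to vary like the other groups, 0 genes were called, and on the 5 CC019/TauUnc mice alone 0 were called.

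Among the genes tested, the largest diet difference inside CC019/TauUnc was that of *Slco1a1*, a transporter of organic anions in the hepatocyte membrane. It was 4.14 and 3.82 on HP and 9.42, 9.44 and 7.87 on HS, a difference of −4.93 ± 0.84 (adjusted p = 9.5e-04). In the other strains it was 1.99, 5.69 and 10.60 (lowest, median and highest) on HP and 1.57, 8.66 and 10.98 on HS, a difference of −1.57 ± 0.17 (adjusted p = 1.3e-11). The diets did not overlap in CC019/TauUnc, and the mean was higher on HP in 1 of the other 21 strains. The gap between the differences, −3.37 ± 0.86, was not past the test (adjusted p = 0.32). Without HP replicate 1 the difference in CC019/TauUnc was −5.09 with an adjusted p of 0.089.

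*Hsd3b5*, a steroid dehydrogenase of liver that is higher in males, was 0.91 and 1.20 on HP and 5.63, 6.21 and 3.11 on HS in CC019/TauUnc, a difference of −3.93 ± 0.82 (adjusted p = 0.020). In the other strains it was −1.11 ± 0.17 (adjusted p = 2.6e-07). The HP values of CC019/TauUnc and the medians of the other strains (1.99 on HP and 3.64 on HS) lay under 4.08. Array values flatten out there, so the sizes of these differences are uncertain. *Mup3*, a major urinary protein, was 11.20 and 10.52 on HP and 12.49, 12.56 and 11.99 on HS, a difference of −1.48 ± 0.33 (adjusted p = 0.042), beside −0.32 ± 0.07 in the other strains (adjusted p = 1.7e-04). Like *Slco1a1*, both did not overlap between the diets of CC019/TauUnc. The calls of *Hsd3b5* and *Mup3* ended without HP replicate 1 (adjusted p = 0.61 and 0.19, at −3.78 and −1.82) and after a second quantile normalization (0.051 each). On leaving out 1 mouse both were called without HS replicate 3 only (0.0015 and 0.029), and *Mup3* was not called with arrays centred on the median (0.069) or with the clock score (0.061). For both genes the gap to the other strains was not called (adjusted p = 0.98 and 0.84).

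Of the genes of the terminal complement pathway, *C6* and *C8b* were lower on HP. *C6* was 5.42 and 5.89 on HP and 6.81, 7.07 and 6.41 on HS in CC019/TauUnc (−1.11 ± 0.23, adjusted p = 0.019), beside −0.17 ± 0.05 in the other strains (adjusted p = 0.0038). *C8b* was 7.63 and 7.80 on HP and 9.09, 9.89 and 8.87 on HS (−1.57 ± 0.36, adjusted p = 0.046), beside −0.23 ± 0.07 (adjusted p = 0.014). The 2 HP values of each gene lay under all 3 HS values. They were the 2 called lower of 25 complement genes (0.0549% over all genes). All 25 were below 0 in CC019/TauUnc, with a median of −0.23 against −0.01 over all genes. This count rests on 2 HP mice, among them the liver with the acinar genes. Members may move together from mouse to mouse, so it does not stand for 25 separate genes. In the other strains the median was −0.07, 19 of the 25 were below 0 and 12 were called lower (10.8% over all genes). *Mbl1*, a mannose-binding lectin, and *C4b*, of the classical pathway, had differences of −0.56 ± 0.25 and −0.39 ± 0.15 in CC019/TauUnc, not past the test, and of −0.39 ± 0.05 and −0.15 ± 0.03 in the others (adjusted p = 9.6e-09 and 1.2e-04). Neither *C6* (adjusted p = 0.27) nor *C8b* (0.54) differed from the other strains by the test of the difference. Inside CC019/TauUnc the adjusted p of both was 1.0 without HP replicate 1, and neither was called without HS replicate 1 (0.10 each) or HS replicate 2 (0.41 and 0.78). The call of *C8b* also ended without HP replicate 2 (0.36), with arrays centred on the median (0.074), after a second quantile normalization (0.051) and with the clock score (0.064).

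The 2 other calls were *Try4* and *Gm3285*. *Try4*, a pancreatic trypsinogen, was 11.00 and 4.39 on HP and 4.10, 4.05 and 4.07 on HS in CC019/TauUnc, so HP replicate 1, the liver with the acinar genes, was the only high one. The difference was 3.62 ± 0.67 (adjusted p = 0.0039) and 0.32 without it (adjusted p = 1.0). *Gm3285*, a gene model named after its values were seen, was 3.39 and 3.23 on HP and 4.84, 4.76 and 4.86 on HS (−1.51 ± 0.33, adjusted p = 0.031), beside 0.07 ± 0.07 in the other strains. Both of its HP values lay under the 4.08 used to filter low genes. Its call was lost on leaving out any 1 CC019/TauUnc mouse (adjusted p 0.12 to 0.51). *Try4* and *Gm3285* were also the 2 genes (0.0183%) called for the difference between the diet effects, at 3.66 ± 0.69 (adjusted p = 0.0098) and −1.58 ± 0.33 (adjusted p = 0.048). Without HP replicate 1 neither difference was called (adjusted p = 1.0 and 0.92), and 222 genes had an unadjusted p under 0.05 in that test.

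**Figure D4:**
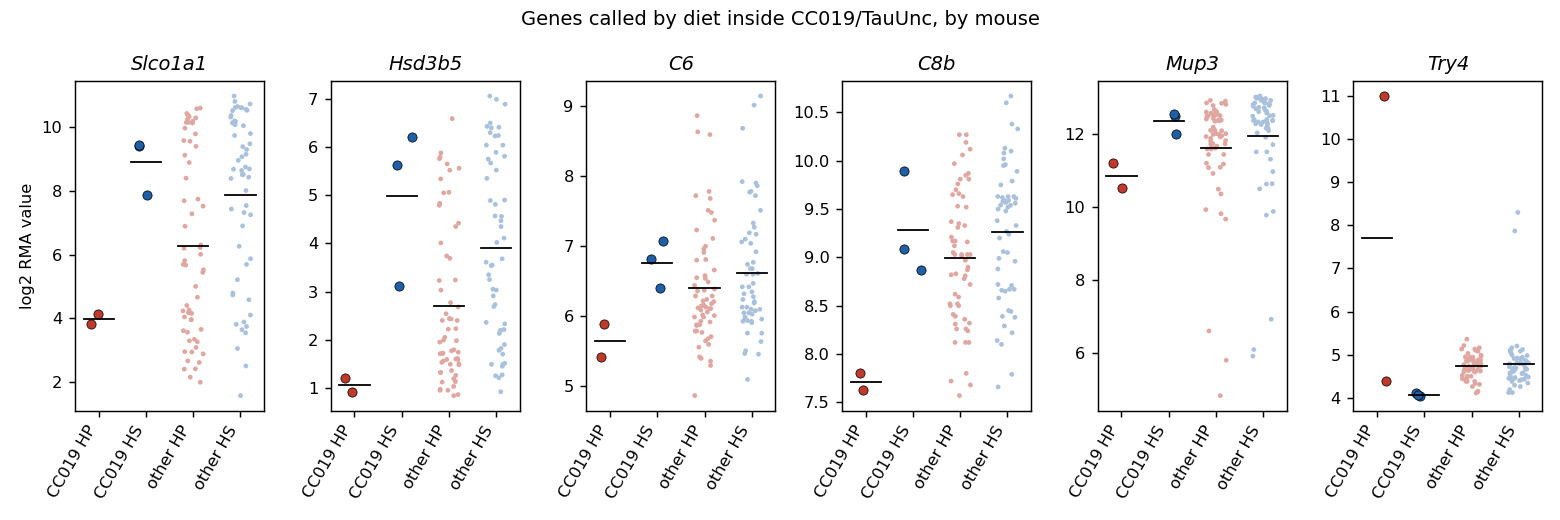
Expression by mouse of 6 of the 7 genes called by diet in CC019/TauUnc (log2 RMA value, vertical axis), as CC019/TauUnc on HP, CC019/TauUnc on HS, other strains on HP and other strains on HS, with a bar at each mean. *Slco1a1*, *Hsd3b5*, *C6*, *C8b* and *Mup3* were lower in both HP mice than in all 3 HS mice of CC019/TauUnc, and *Try4* was high in 1 HP mouse alone.

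Of the 7 genes, 5 were called in the same direction in the other strains and 0 in the opposite one. Of the 2385 genes called in the other strains 1895 (79.5%) had the same sign in CC019/TauUnc, and across all genes, which are not independent, the 2 sets of differences correlated at 0.436. The median size of a difference was 0.12 in CC019/TauUnc and 0.06 in the others, beside the larger SE given above. The genes named for the largest diet differences in the other strains had the same sign here. *Acmsd*, which diverts tryptophan away from NAD, had 0.93 ± 0.50 in CC019/TauUnc and 1.19 ± 0.10 in the others, *Nnmt*, nicotinamide methyltransferase, 1.23 ± 0.59 and 0.87 ± 0.12, *Cyp17a1*, a steroid hydroxylase, 1.26 ± 0.51 and 0.98 ± 0.10, *Slc22a7*, an organic anion transporter, −1.06 ± 0.43 and −1.04 ± 0.09, and *Serpina4-ps1*, a serpin pseudogene, −3.05 ± 1.14 and −1.76 ± 0.24. The 5 were called in the other strains and not in CC019/TauUnc.

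By list, most medians in CC019/TauUnc were near those of the other strains. The 40 genes of amino acid catabolism had a median of 0.10 in CC019/TauUnc and 0.11 in the others, with 0 and 21 called higher. Over all genes 11.0% were called higher in the others. Branched-chain amino acid degradation had 0.15 and 0.10, with *Dbt*, the core of the branched-chain keto acid dehydrogenase, at 0.48 ± 0.13 and 0.35 ± 0.03, and the citrate cycle 0.11 and 0.08, with 22 and 23 of 25 genes above 0. *Idh2*, the mitochondrial isocitrate dehydrogenase, was 0.70 ± 0.18 in CC019/TauUnc (adjusted p = 0.19) and 0.30 ± 0.04 in the others (adjusted p = 4.6e-10). The interferon list had −0.34 and −0.14 and the Kupffer markers −0.41 and −0.23. In CC019/TauUnc 0 were called, and in the others 10 and 12 were called lower (10.8% over all genes). Beside these, the mean Kupffer level on HP was 6.35 and 6.85 in CC019/TauUnc and on HS 6.70, 6.79 and 7.34. The 5 B and plasma cell markers had a median of 0.52 in CC019/TauUnc and −0.12 in the others, with 0 called in the first. Of the 2 calls for the difference of the diet effects, *Try4* is one of the 20 acinar genes, and no member of the other lists was called.

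**Figure D5:**
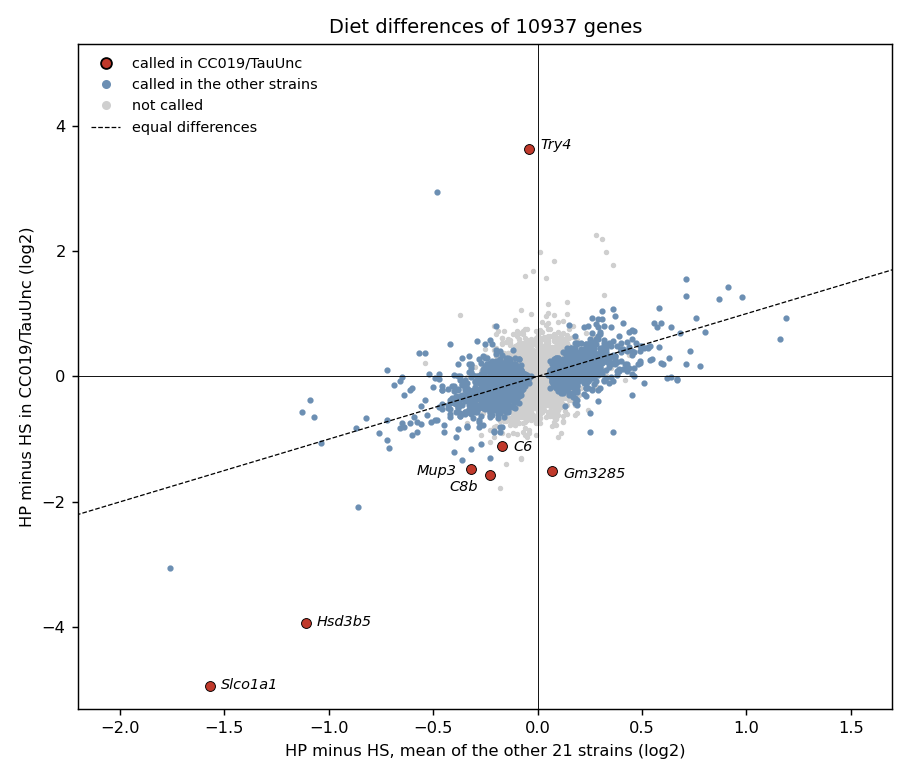
HP minus HS in CC019/TauUnc (vertical axis, log2) against the mean HP minus HS of the other 21 strains (horizontal axis, log2) for 10937 genes, with the 7 genes called in CC019/TauUnc named and the dashed line at equal differences. *Slco1a1* (−4.93) and *Hsd3b5* (−3.93) lie at the lower left and *Try4* (3.62) stands alone at the top.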

How the data were processed

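Liver RNA of each mouse was read on 1 array (Affymetrix, Mouse Gene 2.1 ST). The authors deposited log2 intensities of 41345 transcript clusters after RMA (background correction, quantile normalization and probe summary); the submitters' notes name Affymetrix Expression Console, whose version is not given in these sources. No scanner output was used, so detection of single probes is unknown, and the number of arrays sets the precision. Every column was tied to a mouse by its identifier, and groups came from the labels.

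Clusters with 1 symbol in the platform annotation (23521) were kept where the median over mice exceeded 4.08, the mean of the clusters' medians, or more than 12.5% of mice did so. A gene with several clusters was represented by the brightest, which left 10937 genes. A gene on in CC019/TauUnc alone (4.1% of mice) could not pass. Linear models were fitted with limma 3.58.1 in R 4.3.3 (lmFit, eBayes, Benjamini-Hochberg over all genes), first CC019/TauUnc against all others with diet as covariate, then with a mean for each strain and diet for the diet contrasts. The strain test pools all mice, so it is compared with a fit that takes the strain as a random block. That fit shares a single correlation over all genes and does not use each gene's own spread between lines. In the strain test, p-values rest on the spread between the other strains as well as that between mice. Each CC019/TauUnc mouse counts there as a separate unit, although all are of 1 line. In the diet contrasts, which fit a mean for each strain and diet, p-values rest on the spread between mice. Tables and figures were made with Python 3.11.15, pandas 2.3.3 and matplotlib 3.10.9. The strain test and the diet contrasts were run on simulated data. For the strain test these data held no differences between the other strains, so its calls were not checked under such spread. The strain block fit was not simulated.

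The comparison and the 56 gene lists, written from general knowledge, were chosen with earlier results of these data known. Genes were named by a rule: the 15 largest gains and the 15 largest losses among called genes whose CC019/TauUnc mean was also at that end of 22, without gene models and small RNAs; up to 3 called members of each list by p; the 8 genes of smallest p on either side by diet in CC019/TauUnc and the 8 for the difference; and the 6 largest on either side by diet in the other strains. Alternatives covered the filter, scaling, variance prior, array weights, doubtful mice, each CC019/TauUnc mouse left out, the clock score, the strain block, strain means and each diet alone.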

Additional observations from a re-analysis of the deposited data

Results flagged for a closer look

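In 46 genes the 5 CC019/TauUnc values were checked for a mouse standing apart, by its gap to the nearest other mouse as a share of the whole range (critical value 0.71). This happened in 7 genes, and chance alone marks about 1 group in 20. HP replicate 1 was highest for *Try4* (0.951), *Cela1* (0.799) and *Klk1b5*, a kallikrein (0.755), and lowest for *H2-T10* (0.820). HS replicate 2 was lowest for *Sult1c2* (0.805), HS replicate 1 lowest for *Mpeg1* (0.725), and HS replicate 3 highest for *H2-Ab1* (0.800).

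The HP minus HS difference in CC019/TauUnc was set apart from that of the other 21 strains by limma's test of the difference itself for *Try4* (3.66) and *Gm3285* (−1.58). The first rests on HP replicate 1, since it was 0.35 without that mouse, and the second was −1.66 without it and no longer called.

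Of 20 pancreatic acinar genes, 2 of which were tested, all 20 were at their highest of 122 mice in CC019/TauUnc HP replicate 1.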

How the results depend on the processing

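Limits: 1 strain has no replicate strain, 2 HP mice face 3 HS mice, 1 of the HP mice carries the acinar genes, and no batch is given in the labels. No paired analysis was possible because the labels give the mice identifiers only, and the replicate numbers used here are an order within each group that pairs no mice. Against 334 genes called by strain, array weights gave 2071, a mean for each strain plus diet 1635, the strain block 38, HS mice alone 66 and HP mice alone 9, and leaving out 1 CC019/TauUnc mouse 134 to 231. The filter, both scalings, the variance prior, the left-out mouse, a CC071/TauUnc mouse with low *Xist* and the clock score kept the count within 1.5 times. Of 79 named genes called by strain, 21 were called with the strain block (adjusted p of the other 58 from 0.059 to 0.85), 58 with the clock score and 31 on leaving out each mouse, and none changed sign under these. List members called by strain (53) were 235 with array weights, 245 with strain means, 7 with the strain block, 3 in HP mice, 9 in HS mice and 19 to 38 on leaving out a mouse. Counts of genes at the high and low end of 22 were 1009 and 1085 without the filter, and 471 to 822 and 362 to 530 on leaving out a mouse. The 7 genes called by diet in CC019/TauUnc were 37 without the filter, 3 after another quantile normalization, 0 on the 5 mice alone and 0 to 6 on leaving out a mouse. The 2 genes called for the difference were 31 without the filter, 1 with centred arrays, with quantile normalization, without the low-*Xist* mouse and with the clock score, and 0 to 4 on leaving out a mouse. Calls by diet in the other strains stayed within 1.5 times (2364 to 2372 on leaving out a CC019/TauUnc mouse). Signs turned for the clock list median (−0.03 with the clock score), the median of the major urinary proteins (−0.05 in HP mice alone) and, without HP replicate 1, *Cela1* by diet (−1.0 in CC019/TauUnc and −0.53 for the difference). Without HP replicate 2 *Cela1* was 6.87 in CC019/TauUnc and 7.35 for the difference. The cause of these changes was not tested beyond the mice and genes each setting leaves out. A lone mouse left in an arm is assumed to vary like the other groups.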

Other observations

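Genes that did not pass the filter held further strain differences, since a gene on in CC019/TauUnc alone cannot pass it. Of 11243 such genes, 61 were called in the fit without a filter, beside 316 over all 22180 genes. Of the 61, 58 were higher and 3 lower. The filter largely sets this split, since genes low in most mice can hardly be called lower. Leaving out HP replicate 1, the count was 26, of which 22 were in both sets. The strain block was not run on these genes. With a CC019/TauUnc mean above 4.08 there were 9 higher genes. *Wif1*, a secreted inhibitor of Wnt proteins, was higher by 1.60 ± 0.20 (adjusted p = 3.5e-09, and 4.5e-08 without HP replicate 1), *Bex1*, a brain-expressed X-linked gene, by 2.22 ± 0.40 (9.3e-05 and 0.013), the gene model *Gm4956* by 2.15 ± 0.27 (3.5e-09 and 7.2e-07), *Tafa2*, a chemokine-like protein, by 1.55 ± 0.32 (0.0015 and 0.0078), *Cfap126*, a cilium gene, by 1.43 ± 0.24 (3.5e-05 and 2.1e-05) and *Epb41l4a* by 1.30 ± 0.29 (0.0043 and 0.0052). Other mice reached the lowest CC019/TauUnc value of *Tafa2* (24 mice), *Bex1* (15) and *Wif1* (1), so *Tafa2* and *Bex1* were not high in CC019/TauUnc alone. The genes listed here were named after their values were seen and were picked as higher, so their gains are no separate support.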
